A study of Mus musculus with 3 samples.

Results

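Collagens are encoded by a large gene family, and the 44 genes described here are the protein-coding genes whose symbols consist of Col, a type number, the letter a and a chain number, out of 57180 genes listed. Their transcripts were measured by RNA sequencing in 3 libraries of wild-type mouse cells picked from the vestibule, which senses balance in the inner ear, for an appearance like black balls. The labels give 1 group, no control and no treatment, so genes were compared with genes within a library. According to the labels, 18 such cells came from 9 mice, with 3 mice for each group; the sources used here do not say which cells went into which library. Polyadenylated RNA was copied and amplified with the SMART-Seq HT kit, which starts from the cells themselves, so each library is a sum over a few cells. The labels do not tie a library to named animals, so p-values cover the spread among these 3 libraries and that spread may be technical.

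The labels call the cells macrophages, while the title of the series speaks of melanocytes. Markers of both were present: 15 of 18 macrophage markers and 9 of 15 melanocyte markers stood above 1 TPM. These are 83.3% and 60.0% of the 2 lists, against 50.5% of all protein-coding genes with a count. So did 5 of 5 inner ear fibrocyte, 9 of 10 supporting epithelium and 7 of 10 Schwann cell markers. For fibroblasts it was 6 of 11, for osteoblasts and osteocytes 4 of 10 and for cartilage 3 of 10. Endothelium had 2 of 10, as had pericytes and smooth muscle. All lists were chosen with earlier results of these data known, so the shares are descriptions and not tests. TPM is a level scaled by gene length and then to the same total in each library. Whether a gene lay above 1 TPM was decided by a one-sided limma test of its mean log2(TPM + 1), at an adjusted p under 0.05 (Benjamini-Hochberg, over the 27265 genes that had a count). The libraries held 18460546, 15086854 and 14095521 counts in replicates 1, 2 and 3, so a floor of 3 counts came to 0.163, 0.199 and 0.213 CPM, a unit that divides counts by the library total and not by length. This floor covers counting error only, since no molecular identifiers that would tell PCR copies apart are described. In such summed RNA, fewer cells of a type and less RNA per cell cannot be told apart.

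A collagen is a trimer whose chains wind around each other along a repeat in which glycine stands at every turn, since no larger residue fits at the centre of the helix. Fibrillar collagens have a long unbroken helix and assemble into the fibres of skin, bone, tendon and cartilage. FACIT collagens (fibril-associated collagens with interrupted triple helices) lie on the surface of such fibres, basement membrane collagens form or anchor the sheets under epithelium and around vessels, nerves and muscle, and the other types build beaded filaments and hexagonal nets or span the cell membrane. In the inner ear, collagens of types II, IX and XI form the fibres of the tectorial membrane, and mutations of type IV, IX or XI chains cause hearing loss in people.

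The repeat itself can be read in the coding sequence, where fibrillar genes stand apart by its length. The lines give 90 bases, 10 repeat units, of the 6 collagen genes with the highest mean TPM, taken from inside the longest repeat of the coding transcript in GENCODE M21 (GRCm38), with every glycine codon (GGN) in capitals.
Col9a2: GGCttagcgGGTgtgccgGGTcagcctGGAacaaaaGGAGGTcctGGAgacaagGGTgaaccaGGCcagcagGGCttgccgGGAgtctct
Col9a1: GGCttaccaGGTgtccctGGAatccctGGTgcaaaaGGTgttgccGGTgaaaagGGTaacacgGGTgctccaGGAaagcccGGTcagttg
Col8a1: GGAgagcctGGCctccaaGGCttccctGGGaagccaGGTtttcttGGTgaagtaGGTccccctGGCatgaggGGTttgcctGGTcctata
Col1a2: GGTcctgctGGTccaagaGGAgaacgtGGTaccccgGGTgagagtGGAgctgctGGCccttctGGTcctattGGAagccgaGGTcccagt
Col11a2: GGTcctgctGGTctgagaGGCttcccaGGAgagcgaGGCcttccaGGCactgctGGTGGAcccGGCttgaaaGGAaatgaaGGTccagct
Col27a1: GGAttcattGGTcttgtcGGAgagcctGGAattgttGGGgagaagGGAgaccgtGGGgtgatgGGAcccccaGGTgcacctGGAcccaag
The stretch covers codons 333 to 362 of Col9a2, 571 to 600 of Col9a1, 430 to 459 of Col8a1, 589 to 618 of Col1a2, 979 to 1008 of Col11a2 and 982 to 1011 of Col27a1. In each line a glycine codon opens every unit, and in Col9a2 and Col11a2 an additional one follows directly within a unit. Over the 11 fibrillar genes the longest unbroken run of such units had a median of 338 units. It was 338 in Col1a1, Col11a1 and Col11a2 and 339 in Col1a2, Col2a1 and Col5a2, while Col24a1 and Col27a1 had shorter runs of 216 and 217 units. The 9 FACIT genes ranged from 32 to 113 units, and all 3 type IX chains had 113. The 9 basement membrane genes ranged from 30 to 75 units, and the 15 other types from 23 to 87.

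The collagen family was a small share of the RNA, and most of it came from few genes. Of the 44 genes, 39 had a count in at least 1 library and 31 in all 3. Collagen counts made up 0.0662%, 0.0596% and 0.0845% of the counts in replicates 1, 2 and 3 (0.0701% ± 0.0129; here and below ± gives the SD over the 3 libraries). Their summed level was 217, 166 and 242 TPM in the same order (208 ± 38.7 TPM). In limma's test 11 collagen genes stood above 1 TPM, which is 28.2% of the 39 with a count, beside 37.6% of all genes with a count and 50.5% of the protein-coding ones. With 1 library left out the number was 9 without replicate 1, 10 without replicate 2 and 10 without replicate 3, beside 33.9%, 38.9% and 39.4% of all genes. Among genes counted in all 3 libraries 14 collagens passed, beside 64.7% of all such genes. An unadjusted p under 0.05 was reached by 13 of the 39, beside 11428 of all 27265 genes with a count and 9095 of the 16219 protein-coding ones. In the same test against 10 TPM, Col9a2 was the 1 collagen gene to pass, and 14.7% of all genes were called. The median level of the 39 was 1.48 on the log2(TPM + 1) scale, against 1.49 over all genes with a count and 2.32 over protein-coding genes. Of the 28 collagens with a count that did not pass against 1 TPM, 14 still had a mean of at least 1 TPM. The 11 genes that passed held 82.2% ± 4.77 of the collagen TPM. Col9a2 alone held 29.2% ± 7.16, the leading 3 genes (Col9a2, Col9a1 and Col8a1) 48.4% ± 1.01 and the leading 6, which add Col1a2, Col11a2 and Col27a1, 68.7% ± 4.19.

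**Figure D1:**
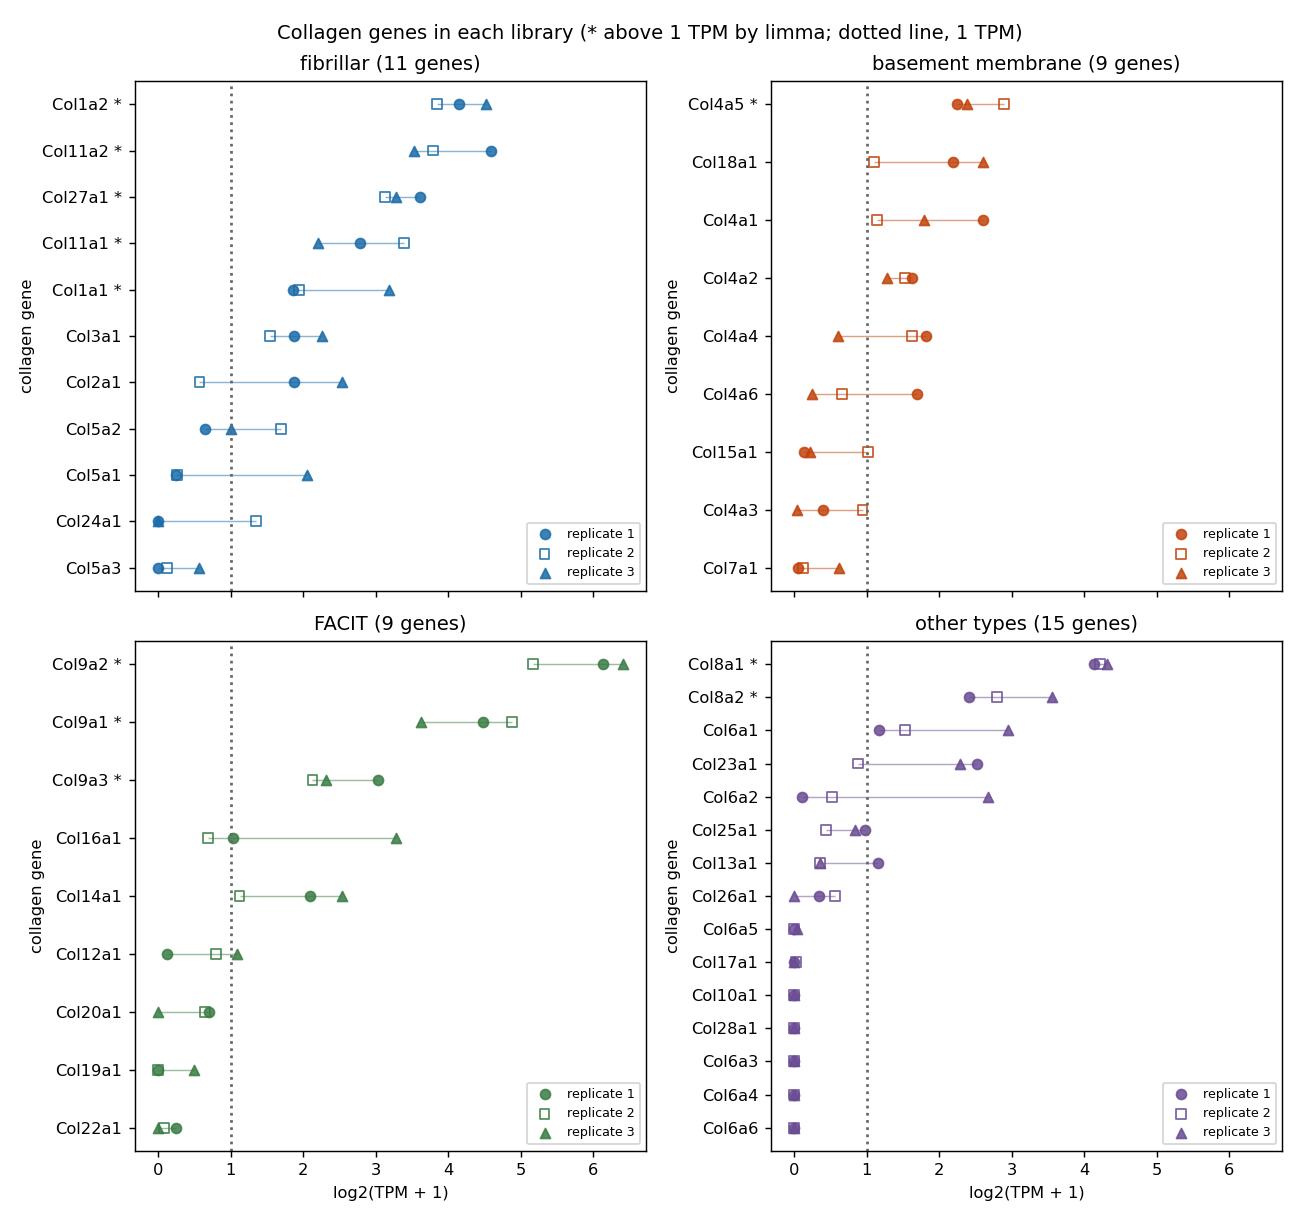
Level of each of the 44 collagen genes on the log2(TPM + 1) axis, in 4 panels by class, with circles, squares and triangles for replicates 1, 2 and 3 and a line spanning the 3 libraries. An asterisk marks the 11 genes above 1 TPM by limma and the dotted line is 1 TPM; Col9a2 lies furthest to the right, and the 5 genes with no count lie at 0.

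FACIT collagens had the highest summed level, followed by fibrillar collagens, other types and basement membrane collagens. The FACIT sum was 103, 70.1 and 114 TPM in replicates 1, 2 and 3 (95.7 ± 23.0 TPM), which is 45.6% ± 2.91 of the collagen TPM. The fibrillar sum was 65.7, 52.7 and 66.0 TPM (61.4 ± 7.56 TPM, 29.8% ± 2.27). Other types summed to 29.4, 27.8 and 46.7 TPM (34.6 ± 10.5 TPM, 16.5% ± 2.90) and basement membrane collagens to 19.7, 15.4 and 14.6 TPM (16.6 ± 2.74 TPM, 8.13% ± 1.80). This order held in each of the 3 libraries, without a test between classes. Its first places depended on gene length. By plain counts, which are not divided by length, fibrillar genes held 48.5% ± 2.28 of the collagen total and FACIT genes 27.1% ± 2.40. With the length of the coding transcript in place of the deposited one, the fibrillar class held 39.1% ± 2.15 and the FACIT class 38.3% ± 2.39. The order of these classes then differed between libraries. The FACIT class held 39.57%, 35.58% and 39.88% in replicates 1, 2 and 3, against 39.49%, 41.02% and 36.77% for the fibrillar class. Above 1 TPM stood 5 of 11 fibrillar, 3 of 9 FACIT, 2 of 15 other and 1 of 9 basement membrane genes, beside 37.6% of all genes and 50.5% of the protein-coding ones. Above 1 CPM, a cutoff not scaled by length, stood 7 fibrillar, 5 FACIT, 3 other and 5 basement membrane genes, beside 43.4% of all genes. The number called in the basement membrane class thus depended on the unit. Its share of the collagen total was the lowest in each library by TPM, by plain counts and by the coding transcript length.

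**Figure D2:**
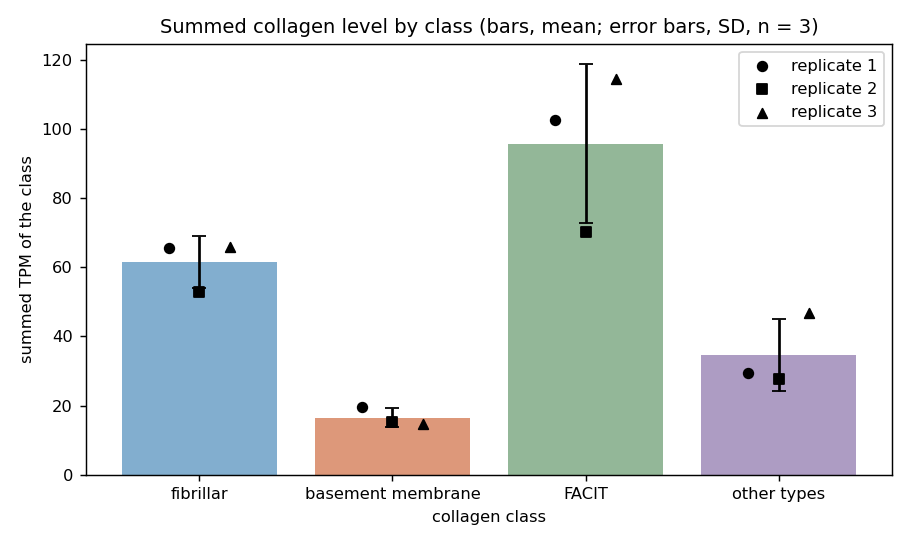
Summed TPM of the collagen genes of each class, with bars for the mean of 3 libraries, error bars for the SD and symbols for each library. FACIT collagens averaged 95.7 TPM, fibrillar collagens 61.4 TPM, other types 34.6 TPM and basement membrane collagens 16.6 TPM.

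Among FACIT collagens, the 3 chains of type IX were the ones to pass the test against 1 TPM. Type IX is a trimer of 3 different chains that sits on type II fibres in cartilage and in the tectorial membrane. Col9a2 (chromosome 4, 120896582 to 120912519, GRCm39 as for all gene positions) stood at 69.0, 35.1 and 84.0 TPM in replicates 1, 2 and 3 (62.7 ± 25.1 TPM; limma, adjusted p = 6.12e-05). It was the highest collagen gene in each library and ranked 2069 among all genes by mean TPM. Col9a1 (chromosome 1, 24216691 to 24291765) stood at 21.2, 28.5 and 11.4 TPM (20.3 ± 8.58 TPM; limma, adjusted p = 0.000342). It was highest in replicate 2, the library in which Col9a2 was lowest. Col9a3 (chromosome 2, 180239583 to 180263982) stood at 7.14, 3.37 and 3.96 TPM (4.83 ± 2.03 TPM; limma, adjusted p = 0.0164). Its call was lost without replicate 1 (limma, adjusted p = 0.112) and at the pseudocount of 5 (0.0508). By 234 bases it overlaps Tcfl5 on the other strand, a gene that had 78 counts in replicate 2 and none in the other libraries.

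The other 6 FACIT genes did not pass. Col16a1 stood at 1.05, 0.608 and 8.71 TPM in replicates 1, 2 and 3 (limma, adjusted p = 0.350), so that replicate 3 stood apart from the other libraries. Col14a1, whose product binds fibres through decorin in tendon and skin, stood at 3.27, 1.18 and 4.79 TPM (adjusted p = 0.128). Col14a1 did pass when the test was limited to genes counted in all 3 libraries (limma, adjusted p = 0.0473). Col12a1, of dense connective tissue, had a mean of 0.654 TPM. Col20a1, Col22a1 and Col19a1 each lacked a count in at least 1 library and had means of 0.396, 0.0833 and 0.135 TPM, and Col20a1 overlaps the lncRNA gene 9230112E08Rik, which had more counts than Col20a1 in replicates 2 and 3.

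Among fibrillar collagens, chains of types I, XI and XXVII passed the test against 1 TPM. Those of types II, III, V and XXIV did not. Col1a2, the second chain of the type I collagen of bone, skin and tendon (chromosome 6, 4504814 to 4541544), stood at 16.8, 13.4 and 21.8 TPM in replicates 1, 2 and 3 (17.3 ± 4.25 TPM; limma, adjusted p = 0.000164). Its 3 libraries lay within 1.63-fold of each other. Col11a2, of the type XI collagen at the core of cartilage fibres (chromosome 17, 34258411 to 34285659), stood at 23.0, 12.8 and 10.6 TPM (15.5 ± 6.66 TPM; limma, adjusted p = 0.000464). Its partner chain Col11a1 (chromosome 3, 113824189 to 114014367) stood at 5.92, 9.48 and 3.60 TPM (6.33 ± 2.96 TPM; limma, adjusted p = 0.00785). Replicate 1 was highest for Col11a2 and replicate 2 for Col11a1, and replicate 3 was lowest for both. Col27a1, a fibrillar collagen of cartilage with the shorter helix (chromosome 4, 63132241 to 63253228), stood at 11.2, 7.72 and 8.73 TPM (9.21 ± 1.79 TPM; limma, adjusted p = 0.000846).

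Col1a1, the main chain of type I (chromosome 11, 94827050 to 94843868), was the weakest of the 11 calls. It stood at 2.64, 2.84 and 8.04 TPM in replicates 1, 2 and 3 (4.51 ± 3.06 TPM; limma, adjusted p = 0.0410), with replicate 3 well above the other libraries. The call was lost without replicate 3 (limma, adjusted p = 0.187), without replicate 1 (0.0722), at the pseudocount of 5 (0.0931) and with the coding transcript length (0.134). Col3a1, of the type III collagen that accompanies type I in elastic tissues, stood at 2.65, 1.90 and 3.79 TPM and did not pass (limma, adjusted p = 0.103). It did pass with a pseudocount of 0.1 (0.0491), among genes counted in all 3 libraries (0.0314), without limma's trend (0.0217) and in CPM (0.000618). Col2a1, the chain of the main cartilage collagen, stood at 2.68, 0.486 and 4.77 TPM (limma, adjusted p = 0.284), a 9.83-fold span. Col5a2 and Col5a1, whose type V trimers regulate the width of type I fibres, had means of 1.27 and 1.18 TPM and did not pass. Col5a1 stood at 0.185, 0.203 and 3.15 TPM in replicates 1, 2 and 3. It overlaps the lncRNA gene 2810430I11Rik by 628 bases, and that gene had 86 counts in replicate 3 and none in the others. Col24a1 was counted in replicate 2 alone, with 101 counts, and Col5a3 had 0, 4 and 22 counts.

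Basement membrane collagens were low, and Col4a5 was the one to pass the test against 1 TPM. Type IV collagen forms the network of all basement membranes from chains encoded in head-to-head pairs. Col4a5 (chromosome X, 140258381 to 140472230), which is mutated in the kidney and hearing disorder Alport syndrome in people, stood at 3.76, 6.42 and 4.23 TPM in replicates 1, 2 and 3 (4.80 ± 1.42 TPM; limma, adjusted p = 0.0125). Its call ended without replicate 2 (limma, adjusted p = 0.0864) and with the coding transcript length (0.0518), where no basement membrane collagen passed. Col18a1, the source of endostatin, stood at 3.57, 1.16 and 5.08 TPM and did not pass (limma, adjusted p = 0.118), though it did among genes counted in all 3 libraries (0.0450). Slc19a1 overlaps it by 8825 bases on the other strand and had 661, 291 and 464 counts, against 234, 69 and 297 for Col18a1, so its level is uncertain. Col4a1 stood at 5.07, 1.22 and 2.46 TPM (limma, adjusted p = 0.154) and Col4a2 at 2.08, 1.87 and 1.43 TPM (adjusted p = 0.288). These are the most widespread type IV chains. Col4a4, Col4a6, Col15a1, Col4a3 and the anchoring fibril gene Col7a1 had means between 0.223 and 1.71 TPM and did not pass.

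All 3 pairs of type IV genes lie side by side in opposite directions in the deposited positions. Col4a1 and Col4a2 overlap by 22 bases at their starts on chromosome 8, Col4a4 and Col4a3 are 71 bases apart on chromosome 1, and Col4a6 and Col4a5 are 1308 bases apart on chromosome X. The promoter windows of the first pair are printed to show how closely both genes start. Each line runs from 250 bases before to 50 bases after the gene's start in RefSeq (GRCm38.p6), at chr8:11312777-11313076 on the minus strand for Col4a1 and at chr8:11312555-11312854 on the plus strand for Col4a2, with the CCAAT motif in capitals (as ATTGG where it lies on the opposite strand).
Col4a1: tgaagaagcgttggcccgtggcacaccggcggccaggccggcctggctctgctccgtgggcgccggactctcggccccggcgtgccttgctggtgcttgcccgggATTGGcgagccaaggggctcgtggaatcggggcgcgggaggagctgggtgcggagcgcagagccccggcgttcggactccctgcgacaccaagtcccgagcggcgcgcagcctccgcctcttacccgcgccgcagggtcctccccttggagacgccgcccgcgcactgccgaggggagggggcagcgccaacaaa
Col4a2: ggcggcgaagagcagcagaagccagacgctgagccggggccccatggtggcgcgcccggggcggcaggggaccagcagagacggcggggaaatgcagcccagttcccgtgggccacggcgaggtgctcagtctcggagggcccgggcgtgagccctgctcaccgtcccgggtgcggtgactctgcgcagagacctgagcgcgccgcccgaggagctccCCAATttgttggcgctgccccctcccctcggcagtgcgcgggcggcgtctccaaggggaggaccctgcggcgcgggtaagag
The windows share 78 bases, read in opposite directions. The motif starts 145 bases before the start of Col4a1 and 32 bases before that of Col4a2. Searched on both strands, and counted whether or not it overlapped another motif, CCAAT occurred in 13 of 38 collagen windows (34.2%), against 37.4% of all 32851 windows. TATAAA occurred in 5 of 38, against 13.6% of all windows, and GGGCGG in 23 of 38 (60.5%), against 35.7%. Windows were found for 35 of the 44 genes, and a match describes the letters alone. Both genes were highest in replicate 1, but the lowest library was replicate 2 for Col4a1, with a span of 4.17-fold, and replicate 3 for Col4a2, with a span of 1.45-fold.

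The remaining types were led by type VIII. Col8a1 and Col8a2 encode short chains that form hexagonal nets in the Descemet membrane of the cornea and in vessel walls. Col8a1 (chromosome 16, 57444621 to 57575100) stood at 16.6, 17.5 and 18.8 TPM in replicates 1, 2 and 3 (17.6 ± 1.14 TPM; limma, adjusted p = 9.30e-05). Among the collagen genes with a mean of at least 1 TPM it varied least between libraries. Col8a2 (chromosome 4, 126180586 to 126208123) stood at 4.29, 5.95 and 10.7 TPM (6.99 ± 3.34 TPM; limma, adjusted p = 0.00541). Type VI collagen forms beaded filaments from chains that include the products of Col6a1, Col6a2 and Col6a3. Col6a1 stood at 1.25, 1.89 and 6.74 TPM (limma, adjusted p = 0.170) and Col6a2 at 0.0798, 0.438 and 5.39 TPM (adjusted p = 0.747), both highest in replicate 3. Col6a3 had no count in any library. A count of 0 allows up to 0.163, 0.199 and 0.213 CPM in replicates 1, 2 and 3, so a lower level of Col6a3 would not have been detected at this depth.

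The membrane-spanning collagens and the rarest types stayed low. Col23a1, which spans the membrane, stood at 4.74, 0.843 and 3.87 TPM (limma, adjusted p = 0.157). Col25a1 and Col13a1, also membrane collagens, had means of 0.706 and 0.5997 TPM and Col26a1 one of 0.252 TPM. The keratinocyte collagen Col17a1 had 1 count and Col6a5 had 2, both under the floor of 3 counts. Col6a4, Col6a6, Col28a1 and Col10a1, the collagen of hypertrophic cartilage, had no count. Col10a1 lies within Nt5dc1, which had 234, 301 and 425 counts.

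Chains were compared next, as the difference of log2(TPM + 1) within each library over 13 pairs. The pairs join chains of the same collagen type, except that Col3a1 and Col2a1, of types III and II, were each set against Col1a1 of type I. With 3 libraries the smallest p an exact sign-flip permutation test allows is 0.25, so no pair can reach 0.05. Col1a1 stood at 2.64, 2.84 and 8.04 TPM, against 16.8, 13.4 and 21.8 TPM for Col1a2, a difference of -1.84 ± 0.48. Col1a2 was thus 6.35-, 4.72- and 2.72-fold higher in replicates 1, 2 and 3. As background, the type I trimer of bone and skin holds more Col1a1 than Col1a2 chains. Within type IX, Col9a3 lay below Col9a2 by a difference of -3.42 ± 0.59 and Col9a1 below Col9a2 by -1.58 ± 1.25, each in 3 of 3 libraries. Col11a1 lay below Col11a2 by -1.17 ± 0.71, also in 3 of 3. Col8a1 lay above Col8a2 by 1.30 ± 0.50 and Col4a5 above Col4a6 by 1.64 ± 0.95. Col4a3 lay below Col4a4 by -0.89 ± 0.46 and Col6a1 above Col6a2 by 0.78 ± 0.44. Under the deposited length each of these 8 pairs had the same direction in 3 of 3 libraries (exact permutation p = 0.25, two-sided, adjusted p = 0.361 over the 13 pairs). With the coding transcript length 7 of the 8 kept it, and Col6a2 was then 1.55-fold higher than Col6a1 in replicate 3. In CPM 5 kept it, since Col6a1 and Col6a2, Col9a1 and Col9a2, and Col11a1 and Col11a2 each had 1 library in the other direction. For Col6a3 and Col6a1 no difference is given, because Col6a3 had no count and the direction was thereby fixed. This pair was nonetheless among the 13 in the adjustment, so the adjusted p-values of the other pairs depend in part on it.

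In the other 4 pairs the direction differed between libraries. Col3a1 minus Col1a1 was -0.44 ± 0.46, Col2a1 minus Col1a1 -0.67 ± 0.69 and Col4a1 minus Col4a2 0.37 ± 0.69 (exact permutation p = 0.5, adjusted p = 0.542 for each). Col5a1 minus Col5a2 was -0.26 ± 1.25 (exact permutation p = 0.75, adjusted p = 0.75), with Col5a1 higher in replicate 3 and lower in the others. Without replicate 2 that mean became 0.33. The sign for Col3a1 and Col1a1 depended on length: it was 0.061 in CPM and 0.10 with the coding transcript length.

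**Figure D3:**
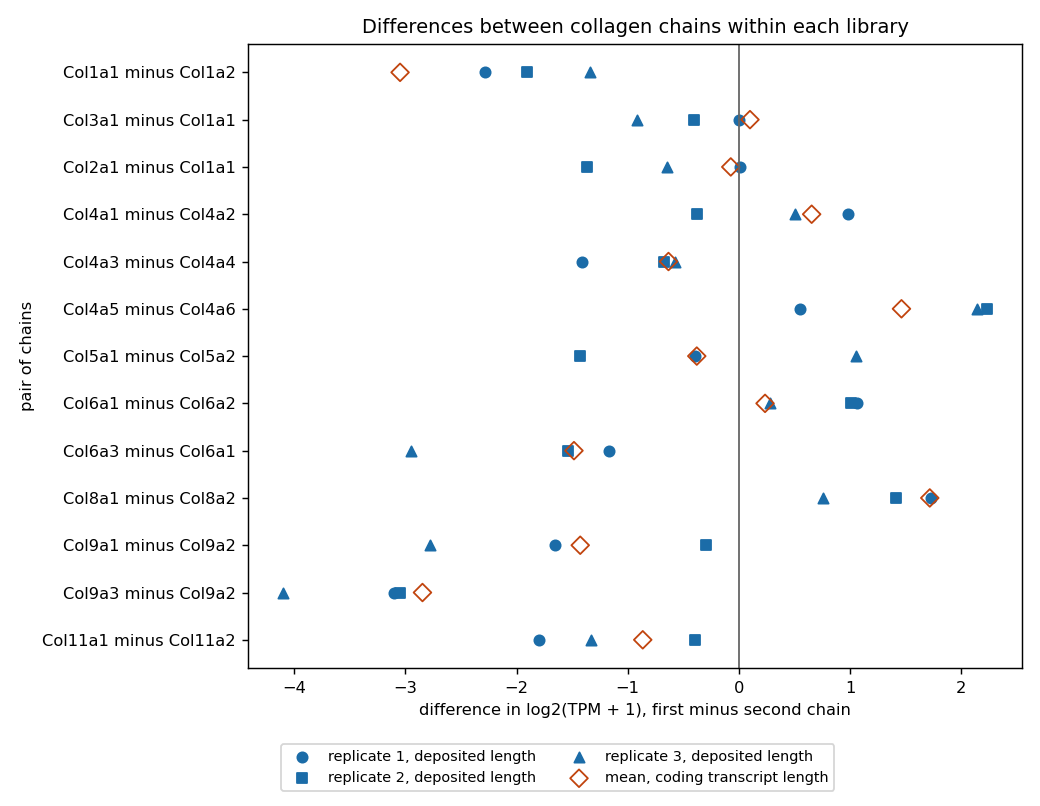
Difference in log2(TPM + 1) between the first and the second chain of 13 pairs, with filled symbols for the 3 libraries under the deposited length and open diamonds for the mean under the coding transcript length. Col1a1 minus Col1a2 and Col9a3 minus Col9a2 lie left of 0 in every library, and Col8a1 minus Col8a2 and Col4a5 minus Col4a6 lie right of it. For Col6a3 minus Col6a1 the direction was fixed, since Col6a3 had no count.

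Levels between genes rest on the length by which counts were divided, which was worked out from the deposited counts and FPKM. It exceeded the coding transcript of GENCODE M21 in all 39 collagen genes with a count, by factors between 1.06 and 5.44 (median 1.38), against a median of 1.97 over all genes that have one. For Col1a2 it was 16209 bp, against a coding transcript of 5348 bp. By the shorter length Col1a2 stood at 30.9 ± 7.54 TPM and ranked second among collagens, and in CPM, at 124, it ranked first. Col9a2 ranked first under both lengths, at 45.9 ± 18.1 TPM by the coding transcript, and second in CPM. The excess of Col1a2 over Col1a1 grew to 16.5-, 12.2- and 7.04-fold in replicates 1, 2 and 3 with the coding transcript length. Col25a1 had the largest factor, 5.44, and stood at 2.25 TPM by the coding transcript, against 0.706 TPM by the deposited length. With the coding transcript length 9 collagen genes were called, beside 38.7% of all genes, and in CPM 20 were above 1 CPM, beside 43.4% of all genes. The 9 that CPM added were Col2a1, Col3a1, Col14a1, Col16a1, Col18a1, Col23a1, Col4a1, Col4a2 and Col4a4.

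**Figure D4:**
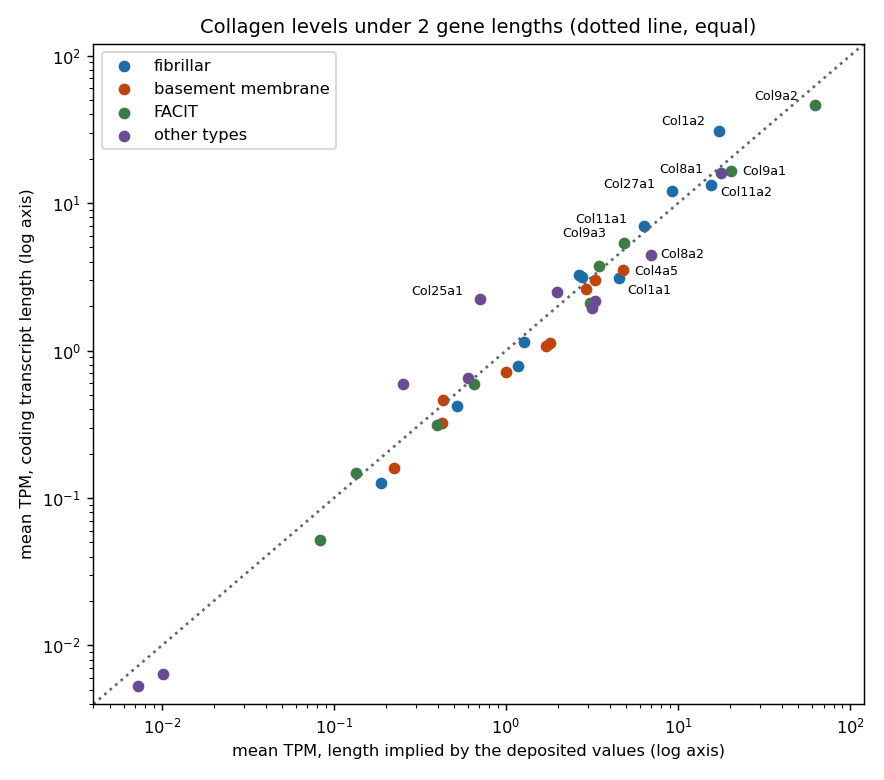
Mean TPM of each collagen gene with a count under the length implied by the deposited values (horizontal, log axis) and under the coding transcript length of GENCODE M21 (vertical, log axis), coloured by class, with the called genes and Col25a1 named. Most points lie near the dotted line of equality; Col1a2 and Col25a1 lie above it.

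Collagen genes differed widely in how much they varied between libraries. Among the 25 collagen genes with a mean of at least 1 TPM, the SD of log2(TPM + 1) was largest for Col16a1 (1.41), Col6a2 (1.38), Col5a1 (1.04), Col2a1 (1.00) and Col6a1 (0.94), all highest in replicate 3. Of these, Col16a1, Col6a2 and Col5a1 reached a mean of 1 TPM only through replicate 3, and 22 of the 25 genes reached it without that library. The SD was smallest for Col8a1 (0.088), Col4a2 (0.18), Col27a1 (0.25), Col1a2 (0.33) and Col4a5 (0.34). The median SD was 0.65 over these collagens and 0.58 over all genes of that level. Replicate 3 was the highest library for 18 of the 39 collagens with a count, or 46.2%, against 36.7% of all genes with a count. Replicate 1 was highest for 12 and replicate 2 for 9. The 10 marker lists differed in the library of their highest sum, which was replicate 3 for 6 lists, replicate 1 for 3 and replicate 2 for 1. The summed TPM of the 11 fibroblast markers was 117, 98.3 and 153 in replicates 1, 2 and 3, and that of the 10 pericyte and smooth muscle markers 26.2, 20.7 and 34.8. The 10 cartilage markers summed to 2010, 1729 and 2091 TPM, the 10 endothelial markers to 19.5, 32.5 and 35.7 TPM, the 10 Schwann cell markers to 8546, 6836 and 9698 TPM and the 15 melanocyte markers to 582, 707 and 715 TPM. Highest in replicate 1 were the 18 macrophage markers, at 9010, 5794 and 6583 TPM, the 10 osteoblast and osteocyte markers, at 92.0, 62.8 and 76.0 TPM, and the 10 supporting epithelium markers, at 2628, 1800 and 1824 TPM. The 5 inner ear fibrocyte markers, at 16187, 17447 and 12040 TPM, were highest in replicate 2. Some of these sums came mostly from 1 gene. In replicates 1, 2 and 3, Lyz2 of the macrophage list stood at 6490, 3513 and 3845 TPM. S100b of the Schwann cell list stood at 8233, 6706 and 9456 TPM. Ucma gave most of the cartilage sum and was highest in replicate 3. The highest library of these sums was that of the gene named. Single markers of a list did not share 1 highest library. Of the macrophage markers 7, 2 and 9 were highest in replicates 1, 2 and 3. Of the fibroblast markers 2, 4 and 4 were highest in replicates 1, 2 and 3, and Twist1 stood at 25.2, 17.1 and 38.0 TPM and Pdgfra at 24.9, 22.2 and 3.64 TPM. Of the cartilage markers 2, 1 and 5 were, and Sox9 stood at 96.8, 77.2 and 91.6 TPM and Cnmd at 180, 209 and 91.9 TPM. The markers at 0 in every library are named with the lists. The part of such cells in the collagen values was not tested.

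The genes of collagen synthesis inside the cell were mostly above 1 TPM. Of the 101 genes in 8 lists of the collagen pathway, 51 stood above 1 TPM. This is 54.8% of the 93 with a count, beside 50.5% of protein-coding genes with a count, to which all the lists belong. These lists too were chosen with earlier results known, so the share is a description and not a test. In the list of hydroxylation and glycosylation, 11 of 15 did, beside 37.6% of all genes. The cyclophilin Ppib led at 262 ± 9.50 TPM, but it overlaps Snx22 by 1448 bases. The hydroxylase subunit and disulfide isomerase P4hb followed at 134 ± 22.5 TPM, P3h4 at 62.4 ± 8.15 TPM and the galactosyltransferase Colgalt2 at 27.7 ± 4.50 TPM, and P3h2 had no count. All 7 genes for chaperones and secretion passed, and without replicate 3, 6 did. Sparc, a matricellular collagen binder, stood at 287 ± 58.6 TPM, the coat protein gene Sec23a at 19.1 ± 9.74 TPM, the export receptor gene Mia3 at 15.9 ± 3.63 TPM and the collagen chaperone Fkbp10 at 15.7 ± 8.86 TPM, which overlaps Nt5c3b by 2504 bases.

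Outside the cell, 3 of 14 genes for processing and 8 of 12 for fibre binding passed, beside 50.5% of protein-coding genes with a count. Of the 14 genes for propeptide removal and cross-linking, those that passed were the lysyl oxidase relative Loxl1 (15.8 ± 3.69 TPM), the proteinase enhancer Pcolce (10.9 ± 5.48 TPM) and the transglutaminase Tgm2 (9.72 ± 1.54 TPM, overlapping Rprd1b). Lox itself had 4.44, 9.51 and 0.475 TPM in replicates 1, 2 and 3. It did not pass (limma, adjusted p = 0.158), though it did without replicate 3 (0.00468), in CPM (0.0141) and with no filter on genes (0.0441). Adamts14, Tll2 and Loxl4 had no count. The 12 fibril-binding proteins, mostly small leucine-rich proteoglycans, were led by Dcn (336 ± 113 TPM), Ogn (209 ± 99.1 TPM), Lum (108 ± 67.0 TPM) and Chad (72.9 ± 34.1 TPM), while Kera had no count. Decorin, the product of Dcn, binds collagen fibres and spaces them.

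Of 16 partners of the basement membrane collagens 7 passed, or 43.8%. For this and the next lists, the share was 37.6% over all genes with a count and 50.5% over the protein-coding ones. Without replicate 1, 4 of the 16 partners passed, beside 33.9% of all genes. The laminin chains Lamb2 (17.7 ± 9.28 TPM) and Lamc1 (13.3 ± 8.07 TPM) led, followed by the nidogen Nid1 (7.76 ± 1.80 TPM) and the laminin chain Lama2 (6.28 ± 4.43 TPM), whose call ended without replicate 1 (limma, adjusted p = 0.130) and at the pseudocount of 5 (0.0560). Of 10 genes for collagen breakdown and its inhibitors, 7 passed, among them the inhibitors Timp2 and Timp3 (90.4 ± 34.7 and 78.4 ± 26.6 TPM), the collagenolytic cathepsin Ctsk (29.5 ± 21.5 TPM) and the uptake receptor Mrc2 (16.4 ± 8.05 TPM). Of 10 collagen receptors, 2 passed, the integrin chain Itgb1 (44.7 ± 6.92 TPM), which pairs with many partners, and the receptor kinase Ddr1 (7.57 ± 2.45 TPM). Ddr2 (3.37 ± 2.41 TPM) and Itga10 (1.23 ± 1.19 TPM) did not, though Ddr2 did among genes counted in all 3 libraries (limma, adjusted p = 0.0406) and in CPM (0.000208). Of 17 other proteins with a collagen domain, 6 passed, or 3 without replicate 1, led by Cthrc1 (26.7 ± 15.2 TPM), Scara3 (20.4 ± 6.71 TPM), Colec12 (11.4 ± 8.86 TPM) and Gldn (5.70 ± 4.01 TPM). The call for Gldn ended without replicate 1 (limma, adjusted p = 0.221), without replicate 2 (0.112), with the coding transcript length (0.165), at the pseudocount of 5 (0.0824) and without limma's trend (0.0570). Colec10, Mbl2 and Adipoq had no count.

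**Figure D5:**
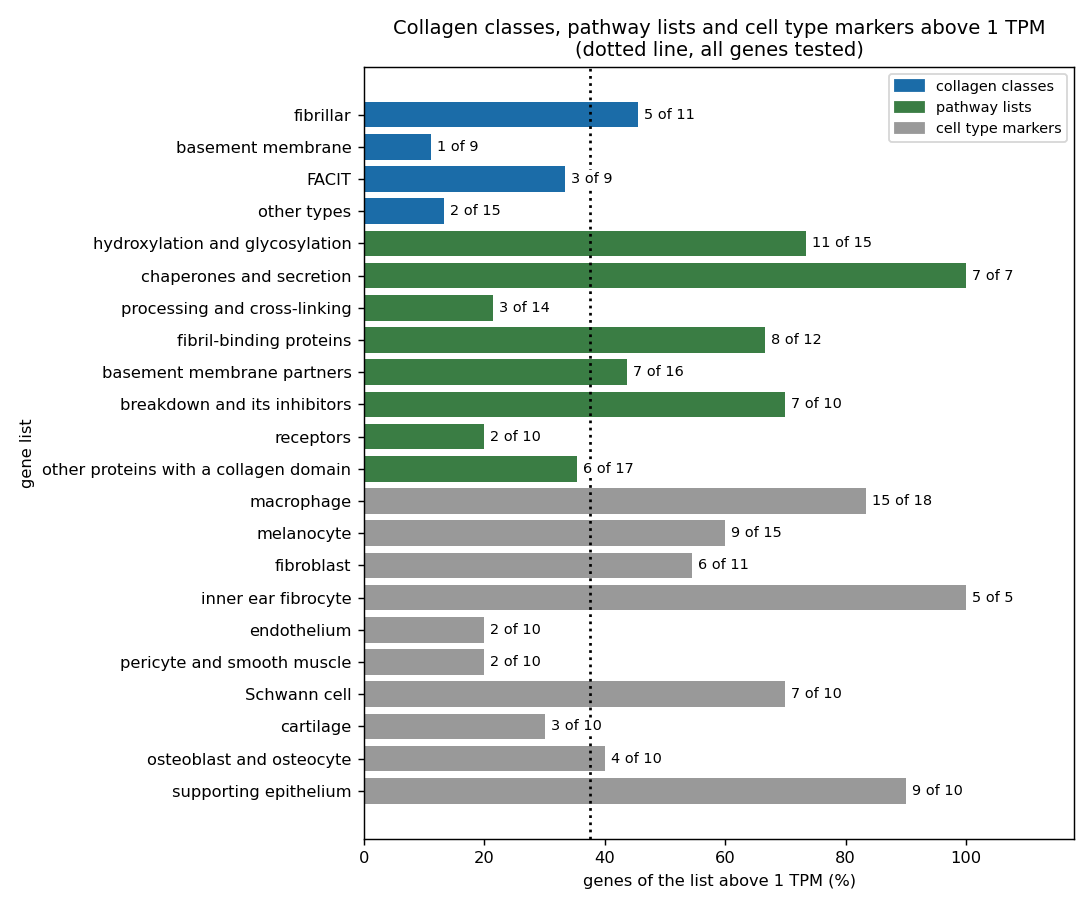
Share of genes above 1 TPM by limma in each collagen class (blue), each list of the collagen pathway (green) and each list of cell type markers (grey), with the number called beside each bar and a dotted line at 37.6%, the share over all genes tested. All 7 chaperone genes and all 5 inner ear fibrocyte markers passed, against 1 of 9 basement membrane collagens.

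The cell types that could give collagen transcripts were described by 10 marker lists, of which 62 of 109 genes stood above 1 TPM. This is 61.4% of the 101 with a count, beside 50.5% of protein-coding genes with a count. The lists were chosen with earlier results of these data known, so this share is a description and not a test. All 5 inner ear fibrocyte markers passed, with Coch at 8005 ± 2950 TPM, Otor at 3662 ± 1014 TPM, Otos at 3433 ± 1074 TPM and Tbx18 at 90.3 ± 11.5 TPM. Of 11 fibroblast markers 6 did, led by Fbln1 (51.8 ± 19.1 TPM), Twist1 (26.8 ± 10.6 TPM), Pdgfra (16.9 ± 11.6 TPM) and Fbln2 (7.15 ± 1.61 TPM), with Dpt at 0. Of 10 cartilage markers 3 passed, Ucma (1678 ± 221 TPM), Cnmd (160 ± 60.8 TPM) and Sox9 (88.5 ± 10.2 TPM), and 5 did without replicate 2. Prg4, which encodes lubricin of joint surfaces (6.94 ± 9.60 TPM), did not pass with all libraries, though it did without replicate 2 (limma, adjusted p = 0.0262), in CPM (0.0359) and with no filter on genes (0.0237). Matn3 and Hapln1, which are defining genes of cartilage, were at 0. Acan, Comp and Matn1 did not pass with all libraries, at means of 1.32, 0.821 and 2.44 TPM. Of 10 osteoblast and osteocyte markers 4 passed, Bglap (32.7 ± 7.83 TPM), Bglap2 (23.1 ± 3.47 TPM), Alpl (8.76 ± 5.58 TPM) and Dmp1 (7.15 ± 1.85 TPM), while Phex, Sost and Mepe were at 0. Ibsp, Runx2 and Sp7 did not pass with all libraries, at means of 4.62, 0.271 and 0.313 TPM. Bglap and Bglap2 are near-identical copies, so the division of reads between them is uncertain, and the call for Bglap2 ended in CPM (limma, adjusted p = 0.0504).

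Vessel markers were scarce: of 10 endothelial markers 2 passed, Emcn (7.53 ± 3.27 TPM) and Kdr (6.70 ± 1.97 TPM), with Tie1 at 0. Over all protein-coding genes with a count 50.5% passed. Cldn5 (6.67 ± 5.51 TPM) and Esam (3.70 ± 3.05 TPM) did not, though Cldn5 did without replicate 1 (limma, adjusted p = 0.00677) and with no filter on genes (0.00662), and Esam did without replicate 2 (0.0173). Of 10 markers of pericytes and smooth muscle 2 passed, Pdgfrb (8.59 ± 3.63 TPM) and Tagln (8.001 ± 1.31 TPM), with Cnn1 at 0. Acta2 (6.60 ± 6.63 TPM) and Rgs5 (2.08 ± 1.17 TPM) did not, though Acta2 did without replicate 1 (limma, adjusted p = 0.0112) and with no filter on genes (0.0302). Of 10 Schwann cell markers 7 passed, led by S100b (8131 ± 1378 TPM), Pmp22 (88.8 ± 69.1 TPM) and Mal (72.6 ± 13.9 TPM). Of 10 supporting epithelium markers 9 passed, led by Gjb6 (648 ± 166 TPM), Gjb2 (628 ± 159 TPM), Krt18 (449 ± 160 TPM) and Epcam (234 ± 74.6 TPM). The macrophage list was led by Lyz2, Ctss, C1qb and Tyrobp and the melanocyte list by Dct, Mlana, Pmel and Slc45a2. Each library is a single sum, so which of these cells gave the collagen transcripts was not tested.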

How the data were processed

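One table was used, in which the authors deposited raw read counts per gene and FPKM (counts divided by a gene length and by the total) for each of 3 libraries, per the file headers. HISAT2, StringTie, edgeR and the build GRCm39 are named in the submitters' processing notes, without versions or roles. The sources used here do not say how multiply mapped reads were handled or if strand counted. The gene length behind the deposited FPKM was worked out from the counts and differed between libraries by at most 0.0528%. It lay within 10% of the summed exon length in GENCODE M21 (GRCm38) for 45.1% of 25984 genes. M21 served for lengths, strand and coding sequence, matched by gene identifier, and RefSeq promoter windows (GRCm38.p6) by symbol, and no coordinates were converted.

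FPKM was rescaled to TPM and tested as log2(TPM + 1) with limma 3.58.1 (R 4.3.3), fitting an intercept alone with the trend of variance on mean. TMM factors came from edgeR 4.0.16, which put the common coefficient of variation of the counts at 0.934. Tables used Python 3.11.15, pandas 2.3.3 and scipy 1.17.1. The test was checked on simulated counts. Chain differences were tested by exact sign-flip permutation across the 3 libraries.

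The collagen genes, lists, pairs and tests were chosen with earlier results of these data known. Values in each library are given for collagen genes that passed or averaged 10 TPM or more, the next 3 of each class are named, and the 4 most abundant genes of each list, except 1 gene that is not reported here. A few further genes are named for an overlap or a role. Alternatives were the pseudocount, CPM, TMM scaling, filters, the limma trend, a 10 TPM threshold, each library left out and, chosen after seeing the data, the coding transcript length of M21.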

Additional observations from a re-analysis of the deposited data

How the results depend on the processing

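The number of collagen genes called, 11 with the settings above, was 20 in CPM without gene length and 1 at a threshold of 10 TPM, and between 9 and 10 with 1 library left out. The number of pathway and marker genes called, 113, was 48 at 10 TPM and between 103 and 114 with 1 library left out. Over all genes tested the share called was 37.6% with the settings above, 43.4% in CPM and 14.7% at 10 TPM. With 1 library left out it lay between 33.9% and 39.4%. The mean level of the 44 collagen genes was 1.49 ± 0.14 (SD, n = 3) on the log2(TPM + 1) scale, 0.14 with a pseudocount of 0.1, 2.95 with a pseudocount of 5, 2.53 in CPM and 1.07 as a median over genes; a pseudocount and a change of unit move such a level by construction. Col3a1 minus Col1a1 was -0.44, 0.061 in CPM and 0.10 with the coding transcript length, a comparison that changes the length of both genes. Col5a1 minus Col5a2, -0.26, lay between -0.913 and 0.33 with 1 library left out; the cause was not tested. Col9a2 passed under all 13 alternatives, at 10 TPM too. Of the other 10 calls, all ended at 10 TPM, those for Col1a1, Col9a3 and Col4a5 also ended under other alternatives given with their values, and the remaining 7 held under the other 12. No paired analysis was possible because there is 1 group, which leaves no other group to pair by replicate number; chain differences were taken within each library. At depths of 14095521 to 18460546 counts, values under 3 counts could not be told from 0, and 3 libraries, each a sum over few cells, limit the precision of every level.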
